A study of Mus musculus with 2 samples.

Results

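The genes described here carry out DNA replication or drive the passage from G1 into S phase. They comprise the MCM2-7 helicase and the factors that load and start it, the sliding clamp and its loader, the replicative polymerases, the enzymes of the lagging strand and of nucleotide supply, and the cyclins, kinases and E2F factors of G1/S control. They were taken by gene symbol from a table of 35275 genes, and all 47 were found there. RNA was sequenced from AML12 cells, a hepatocyte line made from the liver of mice transgenic for human TGF-alpha, labelled as CD-1, male and 3 months of age in both conditions. Control cells received no treatment, and senescent AML12 cells were exposed on 6 days to H2O2 for 1 h, starting at 1 mM and going on at 0.75 mM, and had 23 h to recover after each exposure. Each condition had 1 library, made from RNA of 3 pooled samples, so the differences between them have no replicate check. The control library held 28021941 reads and the senescent library 25738075.

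Before S phase, ORC, Cdc6 and Cdt1 load the MCM2-7 hexamer onto origins of replication as an inactive ring. The Cdc7-Dbf4 kinase and the cyclin-dependent kinases then switch it on by adding Cdc45 and the GINS complex. Cyclin D with CDK4 or CDK6, and cyclin E with CDK2, phosphorylate the RB proteins and so release the E2F factors, which activate many genes of replication and nucleotide synthesis. Adult hepatocytes are mostly quiescent in the liver and re-enter this programme after partial hepatectomy, whereas AML12 cells divide in culture.

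The hepatocyte identity given by the label was set beside 12 marker genes, and all 12 had at least 10 reads over both libraries. Col1a1 and 3 macrophage markers also reached that bar, so it does not by itself identify hepatocytes. The hepatocyte markers Trf (26 and 17 reads) and Afp (75 and 65), named after their values were seen, had few reads. Levels are given as CPM, the TMM-scaled counts per 1000000 reads. Together the 12 hepatocyte markers held 8609.7 CPM in control and 10221 CPM in senescent cells, with the keratin gene Krt8 the most abundant in both. Without Krt8 and Krt18, a sum chosen after seeing the data, they held 3110.6 and 1926 CPM. Of the 12 genes, 5 (41.7%) were lower, with a log2 ratio of senescent over control at or below -0.5, the genes of the secreted products Alb, Apoa1, Serpina1a and Ttr (the last named after its value was seen) and the transcription factor gene Cebpa (-1.44), and 2 (16.7%), the keratin genes Krt8 and Krt18, were higher, against 20.4% and 14.8% of all genes tested, Krt8 losing that call with total counts and upper quartiles. Albumin (Alb) had 32076 reads in control and 2917 in senescent cells, a ratio of -3.23 (95% interval -3.28 to -3.17). Apob, another gene of a secreted product, named after its value was seen, lay at 0.41. Markers of other cell types had few reads. The 8 fibroblast markers summed to 21 reads in control, all of them Col1a1 (1 in senescent cells, lower), and 8 in senescent cells, led by Dcn, with Col1a2, Col3a1, Lum and Thy1 at 0 in both libraries. The 6 macrophage markers summed to 79 and 159 reads, led by Cd68 in control and Ptprc in senescent cells, with Adgre1 at 0 in both. Of the 3 macrophage markers with at least 10 reads, Ptprc, with 27 and 76 reads (1.68), and Csf1r, with 15 and 40 (1.58), were higher past 0.5 under each scaling. The 4 endothelial markers summed to 5 and 11 reads, led by Pecam1 and Kdr. The part of these markers in the results was not tested. In RNA from whole cultures, fewer cells of a type and less RNA per cell cannot be told apart.

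Replication and G1/S genes were still expressed in senescent AML12 cells. Most of them, like most of all genes tested, did not pass the smaller threshold of 0.5 given below. The log2 ratio of senescent over control was computed from counts scaled with the TMM method, and its 95% interval covers counting error only. No member lay past the study's threshold of 1.5 in either direction, against 5.60% of the 14383 genes tested that were lower and 2.71% that were higher. At a smaller threshold of 0.5, with an interval without 0, 13 of the 47 members (27.7%) were lower and 2 (4.26%) were higher, against 20.4% and 14.8% of all genes tested. Among the 11291 genes with at least 100 reads, a depth that every member reached, these shares were 20.1% and 15.5%. The median log2 ratio of the members was -0.17, with quartiles of -0.55 and 0.04, and that of all genes tested was -0.02, with quartiles of -0.48 and 0.35. Of the 47 intervals, 21 lay below 0, 10 above 0 and 16 held 0. The interval held 0 in 4518 of the 14383 genes tested and in 2476 of the 11291 with at least 100 reads. With total counts 30 member intervals lay below and 5 above 0. With intervals widened for an assumed coefficient of variation of 0.1 between libraries these were 14 and 2. All-gene counts of intervals below and above 0 are not given here.

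The zero line itself depended on the scaling. With total counts in place of TMM factors, the median of all genes moved by -0.11 to -0.12, the median of the members moved to -0.28, and calls past 0.5 over all genes went from 2933 lower and 2135 higher to 3525 lower and 1567 higher. Mcm2, Mcm3, Mcm4, Gins4 and Dbf4, each above 0 with TMM factors, lay below 0 with total counts. Rrm2 joined the 13 members lower past 0.5 with total counts.

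**Figure D1:**
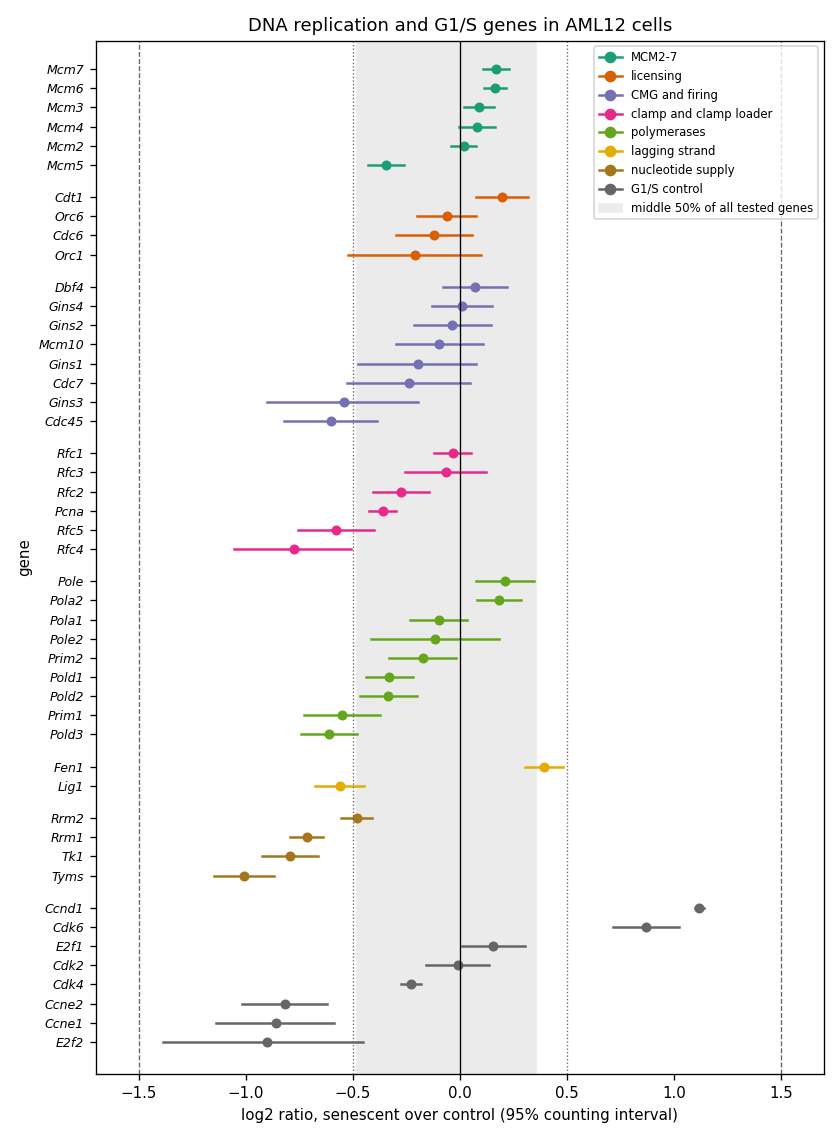
Log2 ratio of senescent over control for each of the 47 genes, grouped by role. Points are ratios from 1 library per condition, bars are 95% counting intervals, dotted and dashed lines mark 0.5 and 1.5, and the grey band spans the middle quartiles of all genes tested (-0.48 to 0.35). The ratios run from -1.01 for Tyms to 1.12 for Ccnd1, and the 4 nucleotide supply genes lie between -1.01 and -0.48.

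The MCM2-7 genes encode the hexamer at the heart of the replicative helicase, and their RNA was nearly the same in both libraries. Mcm6 was the most abundant of them per length in both libraries, with 229 CPM in control and 257 in senescent cells (log2 ratio 0.16, 0.11 to 0.21). Mcm7 had 159.6 and 179 (0.17, 0.11 to 0.23), and Mcm3 had 121 and 129 (0.09, 0.02 to 0.16). Mcm2, with 169.8 and 172, and Mcm4, with 85.7 and 90.5, had intervals that held 0. Mcm5 stood apart from the other subunits. It had 98.7 CPM in control and 77.7 in senescent cells, a log2 ratio of -0.34 (-0.43 to -0.26), and its share of the complex's reads went from 11.4% (exact binomial interval 11.0 to 11.8) to 8.58% (8.22 to 8.96). The median of the 6 genes was 0.08, and it was -0.02 with total counts, where 4 of the 6 lay below 0. Summed over the hexamer there were 25123 reads in control and 22450 in senescent cells, which took 0.0897% and 0.0872% of all reads. With TMM factors the log2 ratio of these sums was 0.07 (0.04 to 0.09).

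Upstream sequence is shown for Mcm5, Mcm6, Cdc6 and Pola1 because E2F factors are known regulators of the MCM and other replication genes. Promoter windows from RefSeq (GRCm38.p6), each reaching from 250 bases before to 50 bases after a start site, matched 38 of the 47 members with 45 windows. Ccnd1, Ccne2, Gins1, Gins2, Gins4, Mcm4, Pole, Prim2 and Rfc2 were not matched. The windows were searched on both strands for the E2F letters TTTCCCGC, TTTCGCGC, TTTGCCGC and TTTGGCGC. These letters occurred in 16 of the 45 member windows (35.6%) and in 2.26% of all 32851 windows. Among the helicase genes, the window of Mcm2 held none of them and Mcm4 had no window. The sequences shown are stretches before the RefSeq start site that touch no annotated exon, that of Cdc6 lying inside the gene as GENCODE annotates it, read 5′ to 3′ on the strand of the gene, with the E2F letters of either strand in capitals. They lie at chr8:75109326-75109397 (plus strand) for Mcm5, chr1:128359715-128359845 (minus strand) for Mcm6, chr11:98907983-98908050 (plus strand) for Cdc6 and chrX:93632256-93632323 (minus strand) for Pola1.
Mcm5: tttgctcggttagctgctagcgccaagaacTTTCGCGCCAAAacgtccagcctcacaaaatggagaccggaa
Mcm6: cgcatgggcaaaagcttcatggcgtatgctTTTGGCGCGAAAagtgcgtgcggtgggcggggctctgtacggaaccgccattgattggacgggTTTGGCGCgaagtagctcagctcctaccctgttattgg
Cdc6: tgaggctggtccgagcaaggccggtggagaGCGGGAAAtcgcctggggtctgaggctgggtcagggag
Pola1: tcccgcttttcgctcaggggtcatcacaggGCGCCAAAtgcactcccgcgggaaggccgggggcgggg
In Mcm5 and in the upstream run of Mcm6, matches on opposite strands overlap, which makes each run longer than the 8 letters searched.

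The members whose window held E2F letters were Cdc6, Cdk2, Cdt1, E2f2, Gins3, Lig1, Mcm3, Mcm5, Mcm6, Mcm7, Orc1, Pola1, Pold1, Pold3, Pole2 and Rfc3. Their log2 ratios ran from -0.90 for E2f2 to 0.20 for Cdt1, with a median of -0.12, and 4 of the 16 were lower past 0.5 and 0 higher. The 22 matched members without these letters ran from -1.01 to 0.87, with a median of -0.29, and 8 of them were lower past 0.5 and 1 higher. Of the 9 unmatched members 1 was lower and 1 higher, and of all genes tested 20.4% were lower and 14.8% higher. The set without these letters reached higher through 1 gene, Cdk6 (0.87), the next being Fen1 (0.39), and ranges also depend on set size. A link between the letters and the ratios was not tested. Of the 22 matches, 12 lay wholly before the start site and 14 lay within 50 bases of it on either side. A match describes letters in a window and is no evidence of binding, and a window without a match lacks only these letters.

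**Figure D2:**
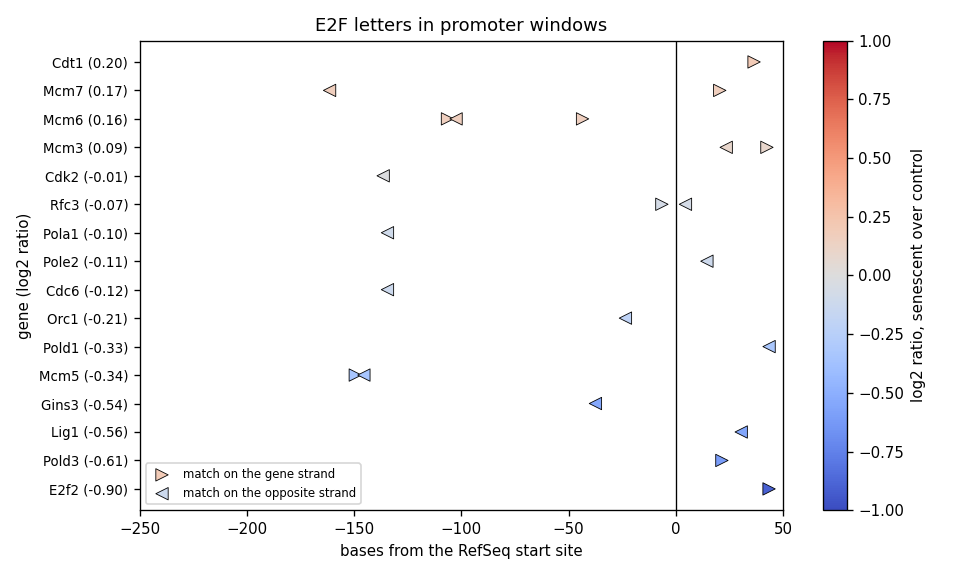
Position of each match to the E2F letters in bases from the RefSeq start site, for the 16 genes that hold one, ordered by the log2 ratio of senescent over control given beside each name and shown by color. Genes from 0.20 (Cdt1) to -0.90 (E2f2) hold matches, and many of these lie near the start site.

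The licensing factors also lay near their control level. Cdt1, which brings the hexamer to the origin, had 38.0 CPM in control and 43.5 in senescent cells (log2 ratio 0.20, 0.07 to 0.32). Cdc6, the ATPase that works with it, had 20.2 and 18.6, Orc6 of the origin recognition complex had 32.9 and 31.5, and its largest subunit gene Orc1 had 7.08 and 6.13. The intervals of Cdc6, Orc6 and Orc1 held 0. Orc1 was among the weakest members, with 206 reads in control and 152 in senescent cells, so its interval reached from -0.52 to 0.10.

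Among the factors that turn the loaded helicase into the active CMG complex, Cdc45 and Gins3 were lower past 0.5 and the others did not pass that threshold. Cdc45, the partner that travels with the helicase, had 16.9 CPM in control and 11.1 in senescent cells (log2 ratio -0.60, -0.82 to -0.39). Gins3 had 6.36 and 4.35 (-0.54, -0.90 to -0.20), which rests on 185 and 108 reads and came to -0.46 once trends on GC content and length were removed. The remaining GINS subunits had intervals that held 0, with ratios of -0.20 for Gins1, -0.03 for Gins2 and 0.01 for Gins4. Mcm10, which helps to activate the helicase, lay at -0.10, the kinase gene Cdc7 at -0.24 and its activator Dbf4 at 0.07, and the interval of each held 0. The interval of Cdc7, from 245 and 177 reads, reached from -0.53 to 0.05.

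The ratios of the sliding clamp and its loader all lay below 0, by unequal amounts, and the intervals of Rfc1 and Rfc3 held 0. Pcna encodes the ring that tethers the polymerases to DNA, and it had 167 CPM in control and 130.0 in senescent cells (log2 ratio -0.36, -0.43 to -0.30). The clamp loader is made of a large subunit and several small ones. Rfc1, the large subunit, had 86.2 and 84.2, with an interval of -0.12 to 0.05. Rfc4 had 11.5 and 6.69 (-0.78, -1.06 to -0.51) and Rfc5 had 25.1 and 16.8 (-0.58, -0.76 to -0.40), and these were lower past 0.5. Rfc2 lay at -0.28 (-0.41 to -0.15) and Rfc3 at -0.07 (-0.26 to 0.12). The share of Rfc1 in the reads of the loader genes went from 47.8% (46.5 to 49.2) to 53.5% (51.9 to 55.1).

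The replicative polymerases are given by subunit. Polymerase delta extends the lagging strand, and the 3 of its subunit genes among the members were below 0. The catalytic gene Pold1 had 57.4 and 45.7 CPM (log2 ratio -0.33, -0.44 to -0.22), Pold2 had 39.3 and 31.2 (-0.33, -0.47 to -0.20), and Pold3 had 46.3 and 30.3 (-0.61, -0.74 to -0.48). Of these, Pold3 was lower past 0.5. Polymerase epsilon copies the leading strand, and its catalytic gene Pole had 31.1 and 36.0 (0.21, 0.08 to 0.35), while Pole2 had an interval that held 0. The smaller subunits are not among the members. Pold4 had 46.7 and 63.1 (0.43, 0.33 to 0.54), and Pole3 (0.38) and Pole4 (-0.19) were added after their values were seen. The summed reads of the 3 delta members were 4160 and 2658 (-0.42, -0.49 to -0.35), and with Pold4 they were 5518 and 4222 (-0.16, -0.21 to -0.10). For epsilon they were 1117 and 1061 over Pole and Pole2 (0.16, 0.03 to 0.28) and 3385 and 3079 with Pole3 and Pole4 (0.09, 0.02 to 0.16). The sums with the smaller subunits were chosen after seeing the data, and the difference between the enzymes was not tested.

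Polymerase alpha and primase form the complex that lays down the RNA-DNA primers. Prim1, the catalytic primase subunit, was lower, with 24.1 CPM in control and 16.5 in senescent cells (log2 ratio -0.55, -0.73 to -0.37). Its partner Prim2 had 26.5 and 23.5 (-0.17, -0.33 to -0.02), the catalytic polymerase gene Pola1 had 35.4 and 33.0 with an interval that held 0, and the accessory gene Pola2 had 54.6 and 62.0 (0.18, 0.08 to 0.29). Within this complex the ratios therefore spanned 0.73 on the log2 scale, with Prim1 at the bottom and Pola2 at the top. The enzymes that finish the lagging strand also parted. Lig1, the ligase that seals Okazaki fragments, had 59.7 and 40.4 (-0.56, -0.68 to -0.45) and was lower past 0.5. Fen1, the nuclease that trims their flaps, had 65.0 and 85.4 (0.39, 0.30 to 0.48), and came to 0.53 with the trends on GC content and length removed.

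Nucleotide supply was the role with the lowest median, -0.75. Tyms, which makes thymidylate for DNA, had 48.0 CPM in control and 23.9 in senescent cells, a log2 ratio of -1.01 (-1.15 to -0.87) and the lowest of all members. This is 0.498 of the control level. Tk1, the thymidine kinase of the salvage route to the same nucleotide, had 50.3 and 29.0 (-0.79, -0.92 to -0.66). Rrm1 encodes the large subunit of ribonucleotide reductase, the enzyme that turns ribonucleotides into deoxyribonucleotides, and had 138 and 83.8 (-0.72, -0.79 to -0.64). These 3 genes were lower past 0.5. The small subunit gene Rrm2 had 137.8 and 98.7 (-0.48, -0.55 to -0.41), short of that threshold with TMM factors and past it with total counts (-0.59) and upper quartiles (-0.52). Of all genes tested, 11.0% had a ratio at or below that of Tyms and 24.9% at or below that of Rrm2.

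The windows of Tyms, Tk1, Rrm1 and Rrm2 held none of the E2F letters. The promoters of the reductase subunits, shown because the subunits form 1 enzyme, held the letters CCAAT, which were found on either strand in 33.8% of the 250-base stretches before all start sites and in 22 of the 45 of the members. The stretches shown lie at chr7:102441574-102441684 for Rrm1 and chr12:24708174-24708238 for Rrm2, both on the plus strand, with CCAAT in capitals.
Rrm1: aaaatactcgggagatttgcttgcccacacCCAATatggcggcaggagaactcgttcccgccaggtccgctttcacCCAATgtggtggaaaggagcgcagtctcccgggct
Rrm2: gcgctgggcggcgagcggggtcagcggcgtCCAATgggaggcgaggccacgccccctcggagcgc
Rrm1 held 2 of these and Rrm2 held 1, all before the start site, while Tyms and Tk1 held none there. The letters GGGCGG of the GC box, the sequence read by SP1, were found before the start site in Rrm2, Tk1 and Tyms and, over the same stretch, in 30 of the 45 member windows (66.7%) and 32.7% of all windows.

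**Figure D3:**
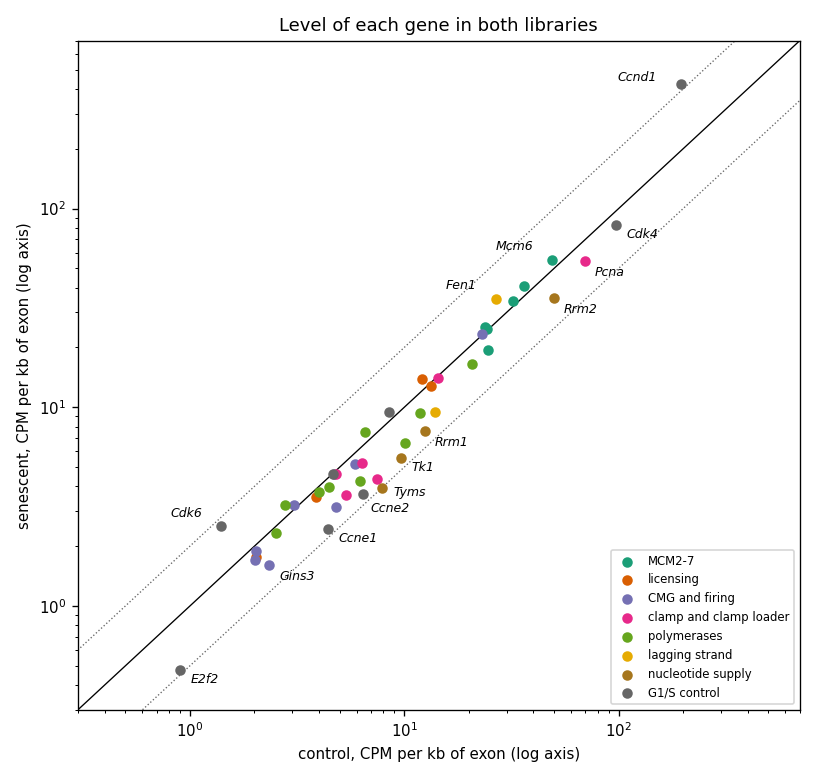
Level of each of the 47 genes in control (horizontal) and senescent (vertical) cells, in CPM per kb of exon, on log axes, colored by role. The solid line marks equal levels and the dotted lines a ratio of 2 in either direction. Ccnd1 is the highest point in both libraries, at 195 and 423, and E2f2 the lowest, at 0.902 and 0.479.

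Genes of G1/S control moved in both directions, and cyclin D1 had the highest ratio of all members. Ccnd1, which responds to growth factors and activates CDK4 and CDK6, had 26692 reads in control and 49447 in senescent cells. It was higher past 0.5, with a log2 ratio of 1.12 (1.10 to 1.14), a 2.17-fold difference. It was also the most abundant member per length in both libraries. Its share of the reads of all 47 members went from 25.4% (25.2 to 25.7) to 44.9% (44.6 to 45.2). Without Ccnd1 the other 46 members had 78303 reads in control and 60693 in senescent cells, a ratio of their sums of -0.14 (-0.15 to -0.12), and with it the ratio of sums was 0.30 (0.29 to 0.31). The sum over all members thus followed 1 gene.

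Cyclin E lay on the other side. Ccne1 had 11.8 CPM in control and 6.49 in senescent cells (log2 ratio -0.86, -1.14 to -0.59), and Ccne2 had 22.5 and 12.8 (-0.82, -1.02 to -0.62). Both genes encode the cyclins that activate CDK2 at the start of S phase, and both were lower past 0.5. Their proportion to each other was nearly the same in both libraries, with Ccne1 at 34.4% (31.4 to 37.4) of their reads in control and 33.7% (29.5 to 38.1) in senescent cells. Cdk2 itself, with 28.8 and 28.6, had an interval that held 0.

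The kinases paired with cyclin D differed in direction. Cdk4 had 316 CPM in control and 269.6 in senescent cells (log2 ratio -0.23, -0.27 to -0.18), and Cdk6 had 19.5 and 35.6 (0.87, 0.72 to 1.02) and was higher past 0.5. Even so, Cdk4 held 98.6% of their summed level per length in control and 97.0% in senescent cells. E2f1, the best known activating E2F gene, had 26.8 and 29.8 (0.16, 0.01 to 0.30). E2f2, a second activator, was the weakest member with 128 reads in control and 58 in senescent cells, and was lower past 0.5 (-0.90, -1.39 to -0.45).

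To place these genes in their families, the other D-type cyclins and E2f3 were set beside them, Ccnd2 and Ccnd3 having been added after their values were seen. Ccnd2 had 142 CPM in control and 167 in senescent cells (log2 ratio 0.24), and Ccnd3 had 54.6 and 37.3 (-0.55). Ccnd1 accounted for 90.2% of the summed level per length of the D-type cyclins in control and 95.1% in senescent cells. E2f3 was higher past 0.5, with 34.6 and 60.0 (0.80), and the share of E2f2 among the activating E2F genes per length went from 5.72% to 2.28%. The dominant members, Ccnd1 and Cdk4, were the same in both libraries. E2f3 had more reads than E2f1 in both, and per length it lay below E2f1 in control and above it in senescent cells.

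**Figure D4:**
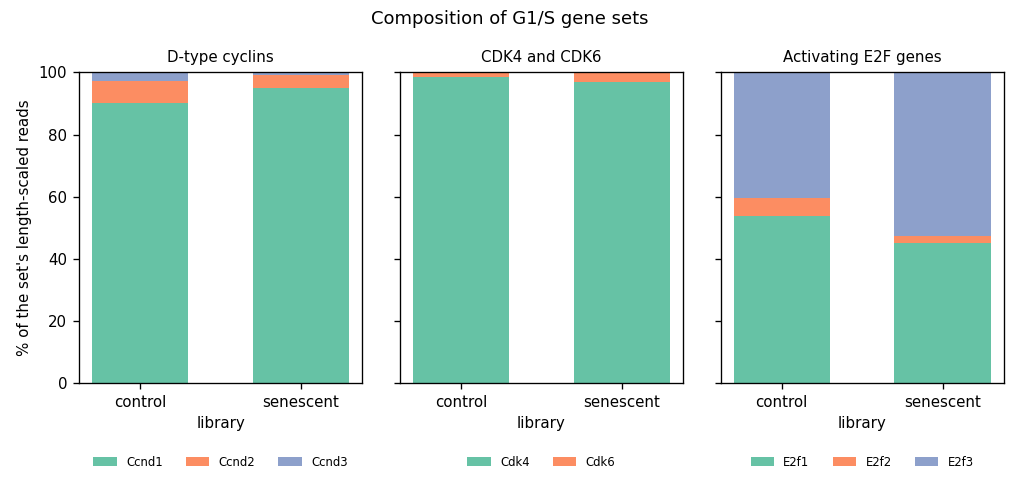
Share of each gene in the summed level per length (reads divided by exonic length, in %) of the D-type cyclins, CDK4 and CDK6, and the activating E2F genes, in the control and senescent libraries. Ccnd1 takes 90.2% and 95.1% of the D-type cyclins, Cdk4 takes 98.6% and 97.0% of its pair, and E2f3 goes from 40.4% to 52.7%.

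Other genes of the same and related pathways, all with at least 10 reads, were counted at the threshold of 0.5. Past it, 20.4% of all genes tested were lower and 14.8% higher. Of 8 further licensing and MCM-related genes, 1 (12.5%) was lower, the MCM relative Mcm8 (-0.79), and 1 (12.5%) was higher, Orc2 (0.77). Their median was -0.32, and with total counts or upper quartiles Orc5 and Gmnn made 3 lower. Of 26 further replisome genes, 3 (11.5%) were lower and 1 (3.85%) was higher (median -0.09), and 4 were lower and 0 higher with total counts. The lower genes were Pclaf, a PCNA-binding factor (-1.25), Rpa3, the smallest subunit of the single-strand binding protein RPA (-0.94), and Clspn, a checkpoint mediator at the fork (-0.54). The higher gene was Mtbp, a firing factor (0.55), which lost that call with total counts. Pclaf had 23.8 CPM in control and 10.0 in senescent cells, so its ratio lay below that of every member. Of 16 further nucleotide genes, 3 (18.8%) were lower and 2 (12.5%) were higher under each scaling (median -0.02). Samhd1, a dNTP hydrolase (-1.08), and the salvage kinase Dck (-0.68) were the lowest, and Ppat (0.71) and Gart (0.69) of purine synthesis were the higher genes.

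Of 22 further G1/S regulators, 3 (13.6%) were lower and 4 (18.2%) were higher, and 3 were higher under every other scaling, where E2f6 (0.50) lost its call. Their median was 0.03, and it became -0.08 with total counts and -0.01 with upper quartiles. Myc was the highest of them, with 77.0 and 177 CPM (1.20), and the genes of repressive E2F factors went both ways. E2f7 (-0.68) and E2f8 (-0.85) were lower, E2f4 (0.64) was higher under each scaling, and E2f5, named after its value was seen, lay at 0.40. For comparison, 5 of 31 genes of G2/M and mitosis (16.1%) were lower and 1 (3.23%) was higher, with a median of -0.05, and 7 were lower with total counts. Both shares lay under those of all genes tested with TMM factors. Among these genes were Mki67, the proliferation antigen (-0.79), the checkpoint kinase gene Bub1 (-0.72) and, on the higher side, the kinesin gene Kif23 (0.83). The difference between these lists and the members was not tested, since genes are not replicates.

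**Figure D5:**
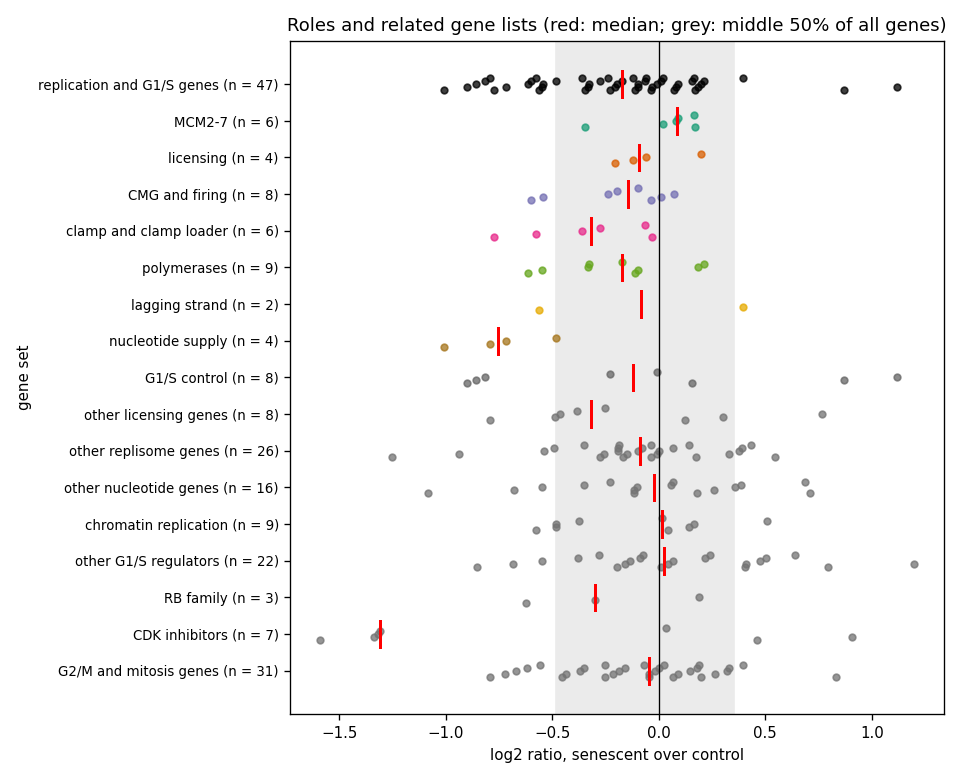
Log2 ratio of senescent over control for the members, each of their roles and the related gene lists. Each point is a gene with at least 10 reads, red bars are medians and the grey band spans the middle quartiles of all genes tested. Medians of the roles run from -0.75 for nucleotide supply to 0.08 for MCM2-7, and that of the CDK inhibitors is -1.31.

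Some values rest on reads that other genes can share. Annotated exons of 18 members overlap those of another gene, and in 9 members the overlap takes at least 10% of the exonic length. The use of strand in counting is not given in the sources used here, so reads of such pairs cannot be told apart. For these 9 members, the overlapping gene is given with its log2 ratio. Fen1 shares 78.8% of its exonic bases with the antisense gene Gm10143, which had 188 and 170 reads (0.08), and 5.37% with Tmem258, which had 2510 and 1776 (-0.27). Gins2 shares 67.3% with Gse1, which had 1624 and 1504 (0.12). Ccnd1 shares 23.4% with LTO1, which had 1532 and 1852 reads (0.50), far below its own, Cdk4 shares 19.7% with Tspan31, which had 3360 and 2107 (-0.44), and Ccne2 shares 17.4% with Ints8, which had 1151 and 904 (-0.12). Rfc4 and Rfc5 overlap Eif4a2 over 12.7% (0.50) and Wsb2 over 10.7% (0.63) of their length, and both neighbours had more reads than the member. Rfc2 shares 15.1% with Lat2 (31 and 40 reads, 0.58) and Orc1 shares 10.8% with Gm12743 (24 and 24 reads, 0.22). Among the lower members with less overlap, Cdc45 overlaps Ufd1 (0.07), Lig1 overlaps Zswim9 (-0.67) and Tk1 overlaps Afmid (-0.42). Pcna has a copy, Pcna-ps2, that matched it over 781 bases at 99.2% identity. This copy was counted with 1174 reads in control and 849 in senescent cells. The level of Pcna is uncertain by an unknown amount, since the handling of shared reads is not given in the sources used here. Tyms and Mcm7 have the copies Tyms-ps (95.6% over 677 bases) and Gm5487 (97.7% over 2157 bases), for which no count was available. Copies of Cdc6 and Rfc5 had at most 1 read in either library.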

How the data were processed

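Poly(A)-selected RNA of control and senescent AML12 cells was sequenced with 1 library per condition. For both libraries the authors deposited the raw read count of each Ensembl gene. The submitters' processing notes name STAR, CASAVA, DESeq2, edgeR and the build mm10, and the counting tool, annotation release, versions and use of strand are not given in the sources used here. Members and lists were chosen with earlier results of these data known. A symbol was found for 34490 of the 35275 genes in GENCODE annotation of GRCm38.

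Counts were scaled by TMM in edgeR 4.0.16 (R 4.3.3). Log2 ratios used a prior count of 1, and genes needed at least 10 reads over both libraries. Intervals are exact binomial (Clopper-Pearson) at 95% and cover counting error only. A floor of 3 reads was used only in counting markers with few reads and did not enter the intervals. Genes were called at 1.5 and 0.5 when the interval was without 0, and no p-value was computed. Levels per length used all annotated exons of a gene. Python 3.11.15, numpy 2.4.6, pandas 2.3.3, scipy 1.17.1, statsmodels 0.14.6 and matplotlib 3.10.9 were used, and copies were sought with blastn 2.17.0 (at least 95% identity over 500 bases). The calculation was tested on simulated data. All members could be named, and from each list up to 4 genes with the largest change in the direction of its median and up to 2 against it, or every gene of a list of 8 or fewer. Alternatives covered scaling (total counts, upper quartiles, DESeq2 1.42.0), read filter, prior count, thresholds, interval width and trends on GC content and length.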

Additional observations from a re-analysis of the deposited data

How the results depend on the processing

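No paired analysis was possible because each condition had 1 library, and the spread between cultures is not known from these data. The median of the members stayed below 0 under all 8 alternatives that give one, from -0.28 with total counts to -0.16 with trends on GC content and length removed. The median of the MCM2-7 genes, 0.08, became -0.022 with total counts, a setting that moves all genes together. With the threshold at 1 in place of 1.5, 1 member was lower (Tyms) and 1 was higher (Ccnd1), and at 2 there were 0 in both directions. With the threshold at 1 in place of 0.5, the 13 lower members became 1 and the 2 higher members became 1, and at 0.25 they became 19 and 3. All-gene counts at thresholds of 1, 2 and 0.25 are not given here. Intervals that allow for a coefficient of variation of 0.1 between libraries, a value assumed, left 13 and 2 member calls. Member intervals without 0 then went from 21 to 14 below 0 and from 10 to 2 above. Intervals that allow for 0.4 left 0 and 0 member calls, so all member calls at 0.5 require that libraries of pooled RNA vary by less than that. With the intervals for 0.4, calls at 0.5 among the 14383 genes tested also fell, from 2933 to 575 lower and from 2135 to 253 higher. Under the other alternatives 12 to 14 members were lower and 2 or 3 were higher. Gins3 (-0.46) lost its call and Fen1 (0.53) gained one with the trends removed, and Rrm2 gained one with total counts and upper quartiles. Ccnd1 had the largest change under all alternatives but total counts, where Tyms had it (-1.11 against 1.01). No called member changed sign under any alternative. The ratio of summed hepatocyte markers, 0.25, became -0.69 without Krt8 and Krt18, a choice made after seeing the data. Depth limits E2f2, Gins3, Orc1 and Pole2 most, the members with the widest intervals.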

Other observations

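The inhibitors that hold the G1/S kinases in check were not uniform in direction. Of 7 genes, 4 (57.1%) were lower past 0.5 and 1 (14.3%) was higher under each scaling, against 20.4% and 14.8% of all genes tested with TMM factors. Cdkn1a, which encodes p21 and is induced by p53, had 213 CPM in control and 398 in senescent cells (log2 ratio 0.90). Cdkn1b, which encodes the CDK2 inhibitor p27, had 161 and 64.8 (-1.31). Cdkn2a (-1.32), Cdkn2c (-1.33) and Cdkn2d (-1.59), genes of the INK4 family, whose proteins bind CDK4 and CDK6, were lower as well. Cdkn2b of the same family had 16.2 and 22.4 (0.46). Counts were taken per gene, so different transcripts of Cdkn2a cannot be told apart. By RT-qPCR, a different measure, the study reports higher mRNA of both CDKN2A and CDKN1A in senescent AML12 cells. Cdkn1c had 8 reads in control and 7 in senescent cells. Among the RB proteins on which the kinases act, Rbl2 was lower past 0.5 (-0.62), and Rb1 (0.19) and Rbl1 (-0.30) were not.

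Genes that restore chromatin behind the fork had a median of 0.02, which was -0.09 with total counts, -0.02 with upper quartiles and -0.07 with trends on GC content and length removed. Of these 9 genes, 1 (11.1%) was lower, the histone chaperone gene Asf1b (-0.58), and 1 (11.1%) was higher, Supt16 of FACT (0.51), against 20.4% and 14.8% of all genes tested. With total counts or upper quartiles, Supt16 lost its call and 3 genes were lower.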
